A study of Mus musculus with 2 samples.

Results

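A set of 356 hippocampal nuclei, called the St18 gate here, was chosen by its transcripts from the 10800 nuclei of the control library. A nucleus was a member when it held a transcript of at least 3 of the 6 genes St18, Htr2c, Col6a1, Megf11, Tmcc3 and Airn and of at least 2 of the 3 genes Grik4, Cpne4 and Spock1. It also had to hold none of Gad1, Gad2 and Glis3. Members made up 3.30% of the control nuclei (95% interval 2.97 to 3.65), and the series holds 11879 nuclei in all. Of them 13 were predicted doublets, and the remaining 343 gave the values below. The comparison set, called the Trps1 gate, was the 2654 control nuclei, doublets left out, with at least 3 of Trps1, Pvrl3, Ccbe1, Luzp2 and Rerg that missed the St18 gate.

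The study profiled nuclear RNA of neurons sorted from the hippocampus of C57/Bl6 mice at postnatal day 75, in droplets, with RNA molecules counted by their unique molecular identifiers (UMIs). Wild-type nuclei from 1 male and 1 female were pooled as the control. The second library, IL-33 enriched, came from a heterozygous Il33-H2B-mCherry animal, whose nuclei carry a reporter of the cytokine gene Il33. It is listed as 1 female, yet its description also speaks of male nuclei in the raw data, which leaves its animals unsettled. With 1 library a group, and nuclei being no replicates, nothing could be tested, no p-value is given, and every interval is a 95% interval for counting error only. The control library held 42183289 UMIs (1746 to 7998 a nucleus) and the enriched library 3650504 UMIs over 1079 nuclei (1726 to 7992 a nucleus), and 24 cell barcodes occurred in both.

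CA3 pyramidal neurons are the excitatory cells that receive the mossy fibres of dentate granule cells and excite one another through recurrent collaterals. Kainate receptors, among them the subunit encoded by Grik4, are known for their part at mossy fibre synapses. Serotonin reaches the hippocampus from the raphe nuclei and acts there through a family of receptors with different G proteins. Htr2c encodes a receptor that signals through Gq and phospholipase C, and its messenger is known from CA3 of the hippocampus as well as from the choroid plexus. Of the other selecting genes, St18 encodes a zinc finger transcription factor of the Myt1 family, Col6a1 a chain of collagen VI, Megf11 a transmembrane protein with EGF repeats, Tmcc3 a membrane protein of the endoplasmic reticulum, and Airn a long noncoding RNA that silences Igf2r on the paternal chromosome.

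Of the control nuclei, 780 met the 6-gene condition, 579 of these also met the CA3 condition, and 223 of the 579 (38.5%) were then left out for a UMI of Gad1, Gad2 or Glis3. Glis3, which encodes a zinc finger factor and is a marker of granule cells, accounted for most of this. It had a UMI in 172 of the 579 nuclei (29.7%), against 39.9% of all control nuclei, while Gad1 and Gad2, the enzymes of GABA synthesis, had one in 39 each. Many members sat on the edge of the rule, with 173 of the 343 (50.4%) holding exactly 3 of the 6 genes, 102 holding 4, 50 holding 5 and 18 holding all 6. The median member had 4868 UMIs, against 4579 in the Trps1 gate and 3191 in the 7475 control nuclei outside both gates. With every nucleus thinned to 1700 UMIs, 123 nuclei met the rule, and 95 of the 343 members (27.7%) were among them. Fewer nuclei thus met the rule at lower depth, and the depth of the members moves with the membership.

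The nuclei of the control library were clustered without the genes of the rule, and the St18 gate spread over 2 main groups of nuclei. A cluster of 388 nuclei took 175 members (51.0%, 45.6 to 56.4). Its leading genes included St18, Col6a1, L3mbtl4, Vgll3, Sgcd and Htr2c, and it is called the St18-led cluster. A cluster of 1047 nuclei led by Ccbe1, Trps1, Kcnq5 and Luzp2, the Trps1-led cluster, took 87 members (25.4%, 20.8 to 30.3). The other 81 members (23.6%) lay in other clusters, 27 of them in a cluster led by Pde11a and Meis2, 15 in one led by Gpc3 and Tmem163 and 11 in one led by Fras1 and Klhl1. None of the 116 nuclei of a cluster led by Csf2rb2 and Tmem132c was a member, although 85.3% of them were in the Trps1 gate. Among 15 nearest neighbours, members of the St18-led cluster had a mean of 8.71 other members and those of the Trps1-led cluster 2.49, while members elsewhere had 0.790.

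Where a member lay went with how many of the 6 genes it held. Among control nuclei meeting the CA3 and excluding conditions, 7.77% of those with exactly 2 of the 6 genes, just outside the rule, were in the St18-led cluster. The share was 23.7% of those with exactly 3, just inside it, 66.7% with 4, 96% with 5 and 100% with 6. The Trps1-led cluster held 29.4%, 39.3%, 17.6%, 2% and 0% of the same nuclei. The mean number of the 5 Trps1 genes was 2.56 at 0 of the 6 genes, 2.3 at 1, 2.51 at 2, 2.75 at 3 and 3.39 at 6. The median UMIs of the same nuclei were 4186, 4166, 4589, 4768 and 5201, and the part of depth in these means was not tested. Among the 343 members, 209 (60.9%) also met the Trps1 condition. Of the selecting genes, St18 divided the members most. Of the 224 members with an St18 UMI, 69.2% were in the St18-led cluster and 12.1% in the Trps1-led cluster, against 16.8% and 50.4% of the 119 members without one. For Megf11 the shares hardly differed, with 51.4% of members with a UMI and 50.6% of members without one in the St18-led cluster.

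**Figure D1:**
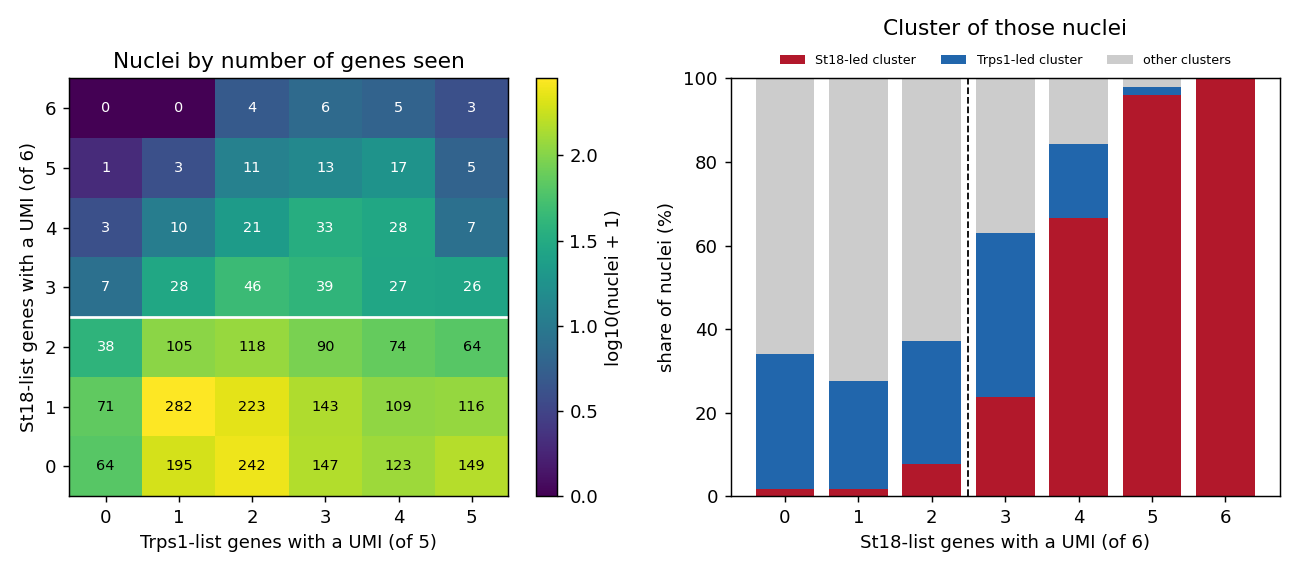
Left, control nuclei that met the CA3 and excluding conditions, counted by how many of the 6 selecting genes (vertical axis) and of the 5 Trps1 genes (horizontal axis) had a UMI; colour is log10 of the count plus 1, and nuclei above the white line are the 343 members. Right, the share of those nuclei in each cluster (bars, in percent) by number of the 6 genes; the dashed line marks the rule, and the St18-led share goes from 23.7% at 3 genes to 100% at 6.

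The St18-led cluster was also larger than the gate. Of its 388 nuclei, 213 were no members, 131 of them with under 3 of the 6 genes, 123 with an excluding gene and 29 with under 2 CA3 genes. These 213 nuclei had a mean of 5.65 members among 15 neighbours, and an St18 level of 384 CPM (the UMIs of a gene scaled to 1000000 UMIs of its set), against 663 CPM in the members of that cluster. The Trps1 gate was likewise mixed, since 33.3% of it lay in the Trps1-led cluster. Clusters led by Stxbp6 and Glis3 and by Trpm3 and Pde7b held 376 and 150 of its nuclei, and a cluster led by 4921539H07Rik and Gpc5 held 324. A further set, the matched Trps1 gate, was therefore kept beside it: the 1015 nuclei of the Trps1 gate that met the same CA3 and excluding conditions as the members.

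The levels of the selecting genes describe the choice and support nothing. St18 (plus strand of chromosome 1, 6487231 to 6860940 in GRCm38) was at 379 CPM in the St18 gate, 67.3 in the Trps1 gate and 75.4 in other control nuclei. Within the gate it was at 663 CPM in the St18-led cluster, 65.5 in the Trps1-led cluster and 140 elsewhere. The 25.4% of members in the Trps1-led cluster thus had St18 at the level of the Trps1 gate as a whole. Of these 87 members, 27 held an St18 UMI. All nuclei of the Trps1-led cluster, members included, had St18 at 20.1 CPM. The clusters led by Stxbp6 and Glis3 and by Trpm3 and Pde7b, which also hold nuclei of the Trps1 gate, had it at 193 and 129 CPM. Htr2c (plus strand of chromosome X, 146962513 to 147197277) was at 567 CPM against 91.1 and 139, and at 714, 346 and 513 CPM in the St18-led, the Trps1-led and the remaining members. Over all control clusters Htr2c was higher still in a cluster led by Vwc2l and Tshz2, at 790 CPM, of which 2.24% were members. Col6a1 was at 230 CPM against 22.7 in the Trps1 gate and 20.8 in other nuclei, and Megf11 at 156 against 29.4 and 25.8. Tmcc3 was at 225 against 62.6 and 51.9, and Airn at 160 against 40.8 and 37.7. In nuclei with exactly 2 of the 6 genes and in those with exactly 3, on either side of the rule, St18 was at 89.6 and 169 CPM, Htr2c at 279 and 389, and Col6a1 at 55.5 and 164.

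Shares of nuclei with a UMI at the same depth of 1700 gave the same order. St18 had a UMI in 42.0% of members, 10.6% of the Trps1 gate and 12.5% of other nuclei, and Htr2c in 53.1%, 12.2% and 16.0%. The CA3 genes Grik4, Cpne4, encoding a copine, and Spock1, encoding the proteoglycan testican, were at 743, 860 and 811 CPM, against 537, 674 and 461 in the Trps1 gate and 206, 339 and 175 elsewhere. Genes of the Trps1 list were lower in members than in the Trps1 gate but above other nuclei. Trps1, a GATA-type repressor, was at 635 CPM against 1035 and 264, and Luzp2 at 558 against 920 and 257. Rerg was at 135 CPM in members and 152 in the Trps1 gate, with intervals that overlap (118 to 154 and 145 to 159).

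**Figure D2:**
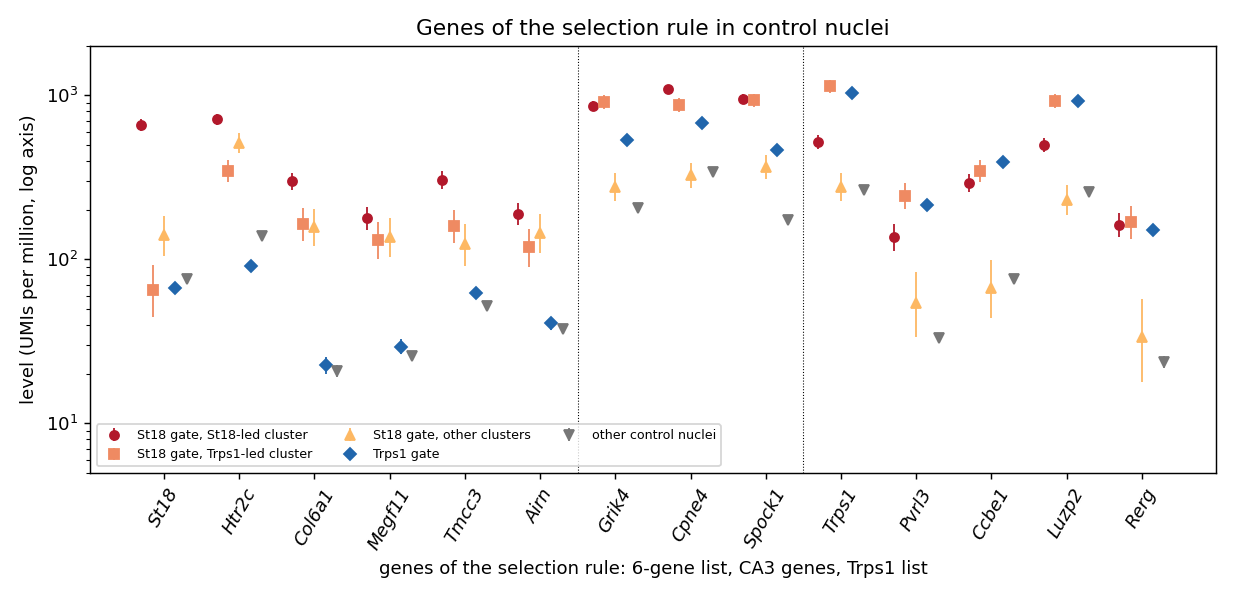
Level in CPM (log axis) of each selecting, CA3 and Trps1-list gene in 3 subsets of the St18 gate by cluster, the Trps1 gate and other control nuclei; bars are 95% counting intervals. St18 is at 663 in members of the St18-led cluster and 65.5 in members of the Trps1-led cluster, where Trps1 and Luzp2 are as high as in the Trps1 gate.

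The label CA3-related was checked on marker lists. The CA3 list summed to 3801 CPM in the St18 gate, 2723 in the Trps1 gate and 1395 in other nuclei, a sum that holds Grik4, Cpne4 and Spock1 of the rule itself. Of its members outside the rule, the guidance ligand gene Slit2 was at 720, 467 and 307 CPM, Rnf182 at 176, 156 and 68.6, and Elavl2, a neuronal RNA-binding protein gene, at 264, 243 and 175. Iyd was at 2.93 CPM from 5 UMIs, against 5.04 in the Trps1 gate, and Homer3 at 11.1 against 16.5. With those 3 genes left out, the other 10 genes summed to 1387 CPM (1332 to 1444) in the St18 gate, 1051 in the Trps1 gate and 675 in other nuclei. Slit2 gave the largest part of each of these sums. Against the Trps1 gate none of 7 genes above the filter used below passed 2-fold, with a median log2 ratio of 0.17. Against other nuclei 3 of 5 were higher and none lower, beside 1.77% and 3.49% of all genes. The sum of the 10 genes was 1552 CPM (1470 to 1639) in members of the St18-led cluster and 1665 (1551 to 1785) in those of the Trps1-led cluster, but 681 (602 to 769) in members elsewhere, close to other nuclei. By this list the label did not describe the members outside the 2 main clusters. The clusters were made from genes that include these, so the values describe the subsets and test nothing. The CA1 list went the other way, at 3635 CPM in the St18-led, 1287 in the Trps1-led and 4956 in the remaining members, against 4829 in other nuclei. The single gene Galntl6 gave most of each of these sums, at 3424, 1156, 3912 and 4155 CPM, so they describe mainly that gene. The other genes of the list were not summed apart. Of the 81 members outside the 2 main clusters, 27 lay in a cluster whose leading genes include Pde11a and Ndst3 of this list. The subiculum and deep cortex list summed to 2741 CPM in members, 1870 in the Trps1 gate and 1474 in other nuclei, and to 3237 in the St18-led, 2453 in the Trps1-led and 2005 in the remaining members. Hs3st4, a sulfotransferase gene, gave most of that sum, at 2407, 1560 and 763 CPM. The sum was thus higher in members too, while the genes of the list went both ways. Against other nuclei, 2 of 8 genes above the filter used below were at least 2-fold higher and 5 lower. Their median log2 ratio was -1.31, and 1.77% of all genes were higher and 3.49% lower. Against the Trps1 gate 1 of 6 was higher and 2 lower, with a median of -0.09, beside 0.991% and 1.01% of all genes. The CA2 list was at 90.1 CPM in members, 101 in the Trps1 gate and 75.9 in other nuclei.

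Other cell types were checked because several selecting genes are also known outside pyramidal neurons, St18 and Tmcc3 in oligodendrocytes, Megf11 in oligodendrocyte precursors, Htr2c in choroid plexus and Col6a1 in fibroblasts. The oligodendrocyte list summed to 62.6 CPM in members (51.3 to 75.7), 47.2 in the Trps1 gate and 67.2 in other nuclei, and 7 of its 12 genes, among them Mog, Mag and Opalin, were at 0 in members, with 83 of the 107 UMIs from Mbp. Precursor genes were at 9.95, 12.4 and 15.2 CPM, with Pdgfra, Olig1 and Olig2 at 0. Astrocyte genes were at 22.2, 24.1 and 27.7 CPM with Gfap at 0, and microglial genes at 12.9, 16.8 and 15.5 CPM with Csf1r, C1qa and C1qb at 0. These 4 glial lists were thus at or near the level of other sorted nuclei. Choroid plexus genes were at 28.7 CPM (21.2 to 37.9), against 15.3 and 18.9, with Folr1 and Clic6 at 0 and 29 of the 49 UMIs from Kl. Vascular and fibroblast genes were at 25.2, 12.8 and 23.6 CPM with Flt1 and Col1a2 at 0, and 32 of the 43 UMIs came from Dcn, which was at 62.2 CPM in members outside the 2 main clusters and 4.71 in the St18-led cluster. The part of those lists in the results was not tested. The mossy cell list summed to 101 CPM in members (86.2 to 117), 97.1 in the Trps1 gate and 83.9 in other nuclei, with Drd2 and Thbs2 at 0 and 75 of the 172 UMIs from Calcrl. Of its 3 genes above the filter of the next comparison, 1 was higher and 1 lower, with a median log2 ratio of -0.38. In that comparison 0.991% of all genes were higher and 1.01% lower. Nuclei with both an Xist and a Y-linked UMI, in a pool of 1 male and 1 female, were 28.3% of members, 24.4% of the Trps1 gate and 19.3% of other nuclei.

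The St18 gate was then compared with the Trps1 gate over all genes, which asks how members differ from nuclei chosen by the Trps1 list. Of those nuclei, 38.2% met the CA3 and excluding conditions. Of 6961 genes with enough UMIs (a mean of both levels of at least 11.7 CPM, or 20 UMIs in the smaller set), 69 (0.991%) were at least 2-fold higher in the St18 gate and 70 (1.01%) at least 2-fold lower. Genes of the rule, sex-linked and mitochondrial genes were left out of these counts. Over all genes the median log2 ratio was 0.04. With TMM or median-of-ratios scaling, which lower all log2 ratios by about 0.05, 53 were higher and 81 lower. The rule bars nuclei with Gad1, Gad2 or Glis3. On the lists of interneuron and granule cell markers outside the rule, 4 of 6 and 2 of 3 genes above the filter were at least 2-fold lower, with medians of -1.38 and -1.55.

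The most abundant gene on the higher side was Sgcd (minus strand of chromosome 11, 46896253 to 47988969), which encodes delta-sarcoglycan, a membrane protein of the dystrophin complex. It was at 2802 CPM in members (2723 to 2882), 889 in the Trps1 gate and 953 in other nuclei, so that the log2 ratio to the Trps1 gate was 1.66 (1.61 to 1.71). The ratio was 1.83 in the Xist part, nuclei holding Xist but lacking Y-linked UMIs, and 1.34 in the Y-linked part, where the reverse held. The parts stand roughly for the female and the male mouse. The rule for naming the 15 highest and 15 lowest genes asked for the same direction in both parts. Sgcd had a UMI in 91.3% of members and 80.1% of the Trps1 gate, so it was widespread in both and differed in level. Its subsets lay far apart, at 4541 CPM in the St18-led cluster, 473 in the Trps1-led cluster and 1829 elsewhere.

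Of the rest of the 15 highest genes, Hs3st2, which encodes a heparan sulfate sulfotransferase, was at 102 CPM against 21.2, with a log2 ratio of 2.26 (1.98 to 2.55). It is also known from deep cortical neurons, and other control nuclei had 43.7 CPM. Myof, encoding the membrane repair protein myoferlin, had the highest ratio, 2.31 (1.68 to 2.94), from 38 UMIs in members. Nkd2, an inhibitor of Wnt signalling, was at 2.09 (1.48 to 2.68), and Hgf, the growth factor that binds the Met receptor, at 2.03 (1.501 to 2.55). Bace2, an aspartyl protease gene, and Calcrl, the core of the CGRP and adrenomedullin receptors, were both at 1.97. Calcrl was at 2.41 in the Xist part and 0.57 in the Y-linked part, so it passed 2-fold in the first alone. Plagl1, an imprinted zinc finger gene, was at 1.92, the collagen V gene Col5a2 at 1.83, the copine gene Cpne2 at 1.81, Vgll3, a cofactor of TEAD factors, at 1.75, and Tns3, encoding the focal adhesion protein tensin 3, at 1.74. Syne2, encoding nesprin 2 of the nuclear envelope, and Pcdh11x, an X-linked protocadherin gene, were both at 1.60, and Sema6a, a membrane-bound semaphorin gene, was at 1.57 (1.25 to 1.90). Myof, Nkd2, Hgf, Bace2, Calcrl, Plagl1, Col5a2, Vgll3 and Syne2 were below 11.7 CPM in the Trps1 gate and passed the filter through the members, so they had to be higher and their ratios support nothing.

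Against nuclei outside both gates, 125 of 7054 genes (1.77%) were at least 2-fold higher in members and 246 (3.49%) lower. The 5 highest were Nkd2 at a log2 ratio of 3.50, Myof at 3.19, Hgf at 2.86, Calcrl at 2.77 and Plagl1 at 2.70, all of them genes that passed the filter through the members. Against the matched Trps1 gate, 113 of 6903 genes (1.64%) were higher and 50 (0.724%) lower. The 15 highest genes lay between 1.48 for Plagl1 and 2.55 for Hs3st2 there. The matched gate is a subset of the Trps1 gate that chose them, so this is a description and no further support.

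On the lower side the matched gate divided the genes. Btbd11 had the lowest ratio, -3.02 (-4.48 to -1.89), from 6 UMIs in members, with -1.15 against the matched gate. Zfp536, a zinc finger gene, was at -2.28 and -0.41, and Adarb2, an RNA editing family gene known as a marker of interneurons, was at -1.93 (-2.07 to -1.80) and -0.37. Dlx6os1, an RNA of the interneuron Dlx locus, was at -1.83 and -0.07, Maf at -1.71 and 0.35, Pde7b, among the leading genes of a control cluster, at -1.70 and -0.32, the phosphatase gene Ptprm at -1.65 and -0.04, and Kcnmb2, a subunit of BK potassium channels, at -1.64 and -0.46. These 7 genes were within 2-fold once the comparison nuclei met the same CA3 and excluding conditions. Other genes were past 2-fold in both comparisons. Fhod3, a formin gene, was at -1.81 and -1.83, P2rx7, an ATP-gated channel gene, at -1.62 and -2.03, Cspg5, encoding the proteoglycan neuroglycan C, at -1.75 and -1.69, and Eya1 at -1.78 and -1.67. Erbb2ip, encoding erbin, was at -2.11 and -1.10, Pantr1, a noncoding RNA, at -1.90 and -1.09, and Tmem44 at -1.83 and -1.23. P2rx7, Maf, Cspg5, Eya1, Fhod3, Dlx6os1, Tmem44, Erbb2ip and Btbd11 were below 11.7 CPM in members and passed through the Trps1 gate. These genes had to be lower than in the Trps1 gate, so their ratios to it support nothing. Of the genes named just above as past 2-fold in both comparisons, only Pantr1 was not among them. The matched gate is a subset of the Trps1 gate, so the ratios to it are a description and no further support. Fhod3, Tmem44 and Btbd11 had 0 UMIs in members of the Y-linked part.

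**Figure D3:**
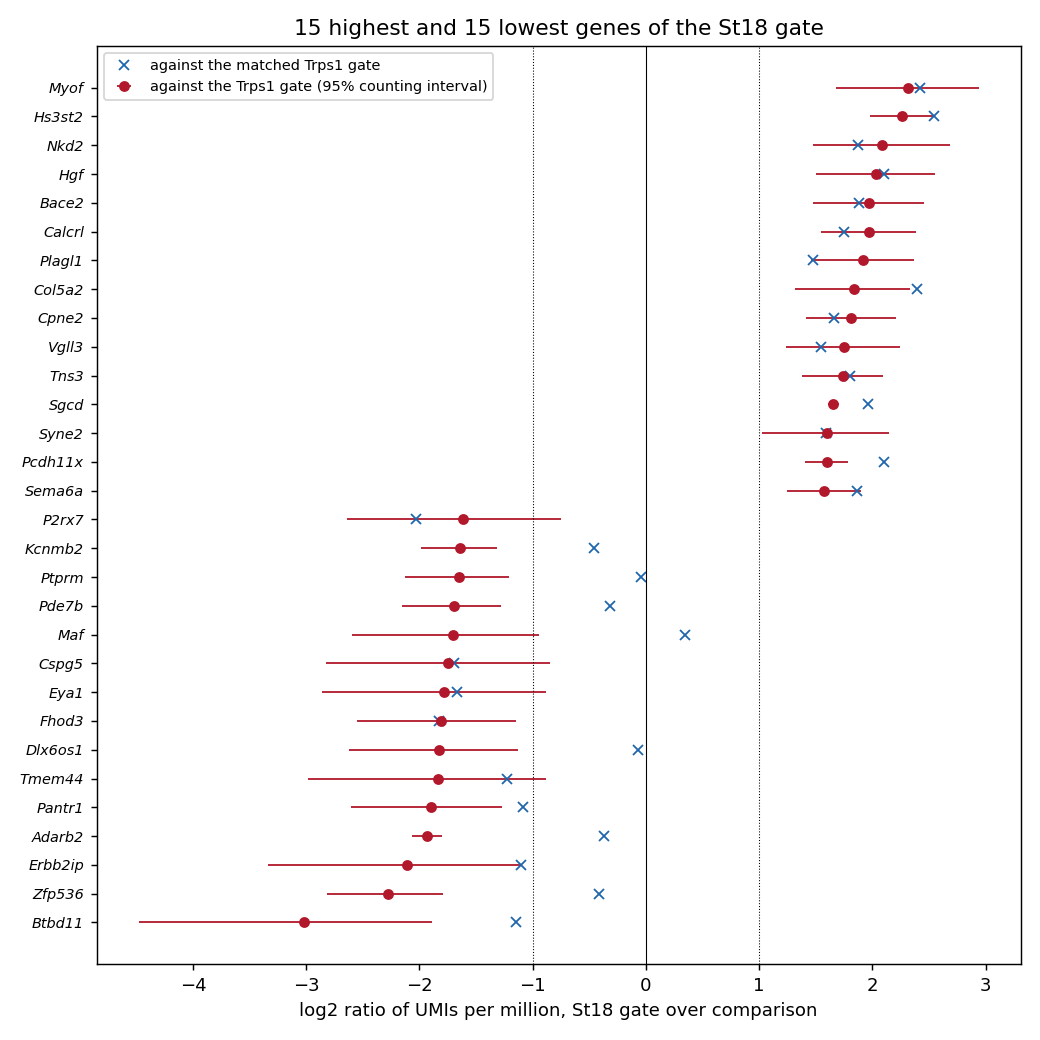
Log2 ratio of CPM for the 15 highest and 15 lowest genes of the St18 gate against the Trps1 gate (circles, bars are 95% counting intervals) and against the matched Trps1 gate (crosses); dotted lines mark 2-fold. The 15 high genes lie between 1.48 and 2.55 against the matched gate, a subset of the Trps1 gate that chose them, while Adarb2, Dlx6os1, Maf, Ptprm, Pde7b, Zfp536 and Kcnmb2 move to between -0.46 and 0.35.

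Serotonin receptor genes were followed because Htr2c chose the nuclei. Counts in this list and in the signalling and receptor lists that follow are to be read beside 0.991% of all 6961 genes higher and 1.01% lower. Of 14 listed, 4 genes outside the rule passed the filter, with 1 at least 2-fold higher and 1 lower. Htr7, which encodes a receptor coupled to Gs, was at 57.3 CPM in members (46.6 to 69.9), 24.7 in the Trps1 gate and 21.2 elsewhere, giving a log2 ratio of 1.21 (0.87 to 1.55). Htr4, also coupled to Gs, was at 368 CPM against 193 and 214, a ratio of 0.93 (0.81 to 1.06) that did not reach 2-fold but reached 1.24 against the matched gate. Htr1f, coupled to Gi, was at 91.9 CPM against 210 and 157, a ratio of -1.19 (-1.43 to -0.96). Htr2a, the Gq-coupled relative of Htr2c, was at 14.04 CPM against 18.8, with a ratio of -0.42 (-1.09 to 0.19), and a difference was not detectable at this depth. The other 9 receptor genes had at most 8 UMIs in members. Members of the St18-led cluster and the Trps1-led cluster had Htr4 at 527 and 277 CPM, Htr1f at 64.7 and 152 and Htr7 at 69.4 and 59.2. Of 21 genes of Gq and phospholipase C signalling above the filter, none was 2-fold higher and 1 was lower, the diacylglycerol kinase gene Dgki at -1.04 (-1.16 to -0.92), which was at -0.83 against the matched gate and so no longer past 2-fold.

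Kainate and delta receptor genes, the family of Grik4, were close to the Trps1 gate. Of 8 above the filter outside the rule, none was higher and 1 was lower, Grik1 at -1.62 (-2.05 to -1.21), which moved to -0.06 against the matched gate. Grik2, the most abundant kainate subunit, was at 2025 CPM against 2215, with a ratio of -0.13 (-0.18 to -0.08), and Grik5 was at 0.07 (-0.10 to 0.23). Neto1, whose product is an auxiliary subunit of kainate receptors, was at 0.08 (-0.000564 to 0.16), yet it was at 597 CPM in the St18-led cluster and 1483 in the Trps1-led cluster. Of 13 AMPA and NMDA receptor genes none was higher and 1 was lower, the AMPA receptor auxiliary gene Cacng3 at -1.05, which was at -0.76 against the matched gate.

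Among inhibitory receptor genes, 1 of 10 GABA-A subunits was higher. Gabrg3 (minus strand of chromosome 7, 56716465 to 57387188), which encodes the gamma 3 subunit, was at 1340 CPM in members (1286 to 1396) and 661 in the Trps1 gate, a ratio of 1.02 (0.95 to 1.09). It was just under 2-fold with TMM scaling, at 0.97, and was at 0.89 in nuclei of 3000 to 6000 UMIs. Other nuclei had 1035 CPM, so the level in members lay closer to that of the library outside both gates. Against the matched gate the ratio was 2.07, and within the gate the subsets were at 2199 CPM in the St18-led, 137 in the Trps1-led and 925 in other clusters.

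Beside 0.991% of all genes higher and 1.01% lower, transcription factor genes had 2 of 36 higher and 3 lower. Nr2f2, which encodes COUP-TFII, was at 33.9 CPM against 11.6, with a ratio of 1.55 (1.08 to 1.995), and Sox5 was at 717 CPM against 340, with a ratio of 1.08 (0.98 to 1.17). Both were about as far from the matched gate, at 1.60 and 1.06, and Sox5 hardly differed between the 2 main subsets, at 673 and 725 CPM. Npas3 at -1.21 and Sox6 at -1.51, 2 genes known from interneurons, were at 0.02 and -0.48 against the matched gate, and Zfhx4, named after its value was seen, was at -1.07. Of the genes known for the temporal end of the hippocampal long axis, Plagl1, Nr2f2 and Dcn were past 2-fold, but all 3 were below 11.7 CPM in the Trps1 gate and passed the filter through the members, so they had to be higher and nothing is read from the list. Lypd1 was at 0.96 and Etv1 at 0.29, Dcn, Lypd1 and Etv1 being named after their values were seen. Dcn, at 1.13, is also a fibroblast gene, and its UMIs lay mostly in members outside the 2 main clusters.

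Guidance and adhesion genes had members on both sides. Of 35 Eph, ephrin, semaphorin, plexin, slit and netrin genes, 2 were higher and 2 lower, where 0.991% and 1.01% of all genes were. Efna5, which encodes an ephrin ligand, was at 235 CPM against 92.2, with a ratio of 1.35 (1.18 to 1.52), and Sema6a was the other. Epha3, a receptor for ephrins of that class, was at 211 CPM against 523, with a ratio of -1.31 (-1.46 to -1.15), and Sema6d was at -1.14 (-1.34 to -0.94), but at -0.75 against the matched gate. Epha3 was at 87.1 CPM in the St18-led and 399 in the Trps1-led members, and Efna5 at 317 and 80.3, so they were higher in opposite subsets. Of 29 genes of this list above the filter between the subsets, 6 were at least 2-fold higher in the St18-led and 2 in the Trps1-led members, beside 3.07% and 1.6% of all 3126 genes. Of 36 synaptic adhesion genes 1 was higher, Flrt3 at 1.03 (0.65 to 1.41), which was under 2-fold with TMM scaling, at 0.98, and against the matched gate, at 0.91. Of 14 collagen and matrix genes 1 was higher, Col5a2, which had to be.

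The counts in the other lists are to be read beside the 0.991% of all genes higher and 1.01% lower. Of 36 potassium channel genes none was higher and 2 were lower, Kcnip1 at -1.45, which was at -0.39 against the matched gate, and Kcnk1 at -1.02 (-1.73 to -0.38), which was at -0.95 there. None of 20 sodium, calcium and HCN channel genes passed 2-fold in either direction, nor did any of 5 metabotropic glutamate receptor genes. Of 20 phosphodiesterase and cyclase genes, Adcy5 was higher at 1.04 and Adcy1 and Pde7b lower, Adcy1 at -1.07. Adcy5 was just under 2-fold with TMM scaling, at 0.99, and Adcy1 was at -0.43 against the matched gate. Of 7 neuropeptide and peptide receptor genes the opioid receptor gene Oprm1 was lower at -1.13, and at -0.27 against the matched gate. None of 3 early activity genes above the filter passed 2-fold, with a median of 0.27. Igf2r and Mas1, which lie beside or under Airn on chromosome 17, were at 0.66 (0.13 to 1.16) and 0.89 (0.43 to 1.32). Airn (plus strand, 12741311 to 12860136) overlaps Igf2r (minus strand, 12682406 to 12769664), and the sources used here do not say whether the counting used strand, so their reads may not be separate.

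The 2 main subsets of the gate were set side by side, which describes the mixture and tests nothing, since the clusters were made from these genes. Of 3126 genes above the filter, 96 (3.07%) were at least 2-fold higher in members of the St18-led cluster and 50 (1.6%) at least 2-fold lower than in members of the Trps1-led cluster. The following genes were chosen after their values were seen. Cdh13, a cadherin gene without the usual membrane anchor, was at 541 and 54.9 CPM, the glypican gene Gpc6 at 360 and 46.5, the netrin receptor gene Unc5d at 969 and 249, Nrg1, which encodes neuregulin 1, at 1123 and 410, and the channel gene Trpm3 at 1953 and 723. In the other direction, Kcnq5, a potassium channel gene of the M-current, was at 1082 and 8339 CPM, Fam19a1, a secreted protein gene, at 530 and 4470, and Cntnap5c, a contactin-associated protein gene, at 398 and 1185. Over the whole gate these opposite levels met in the middle, so Kcnq5 was at 3220 CPM against 3276 in the Trps1 gate, a ratio of -0.02. Beside Sox5, named genes at similar levels in both subsets included Htr7, Plagl1 at 47.1 and 42.2 CPM and Nr2f2 at 37.7 and 31.7. Nr2f2 was below the filter of this comparison and Plagl1 close to it, so a difference in either could have been missed.

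**Figure D4:**
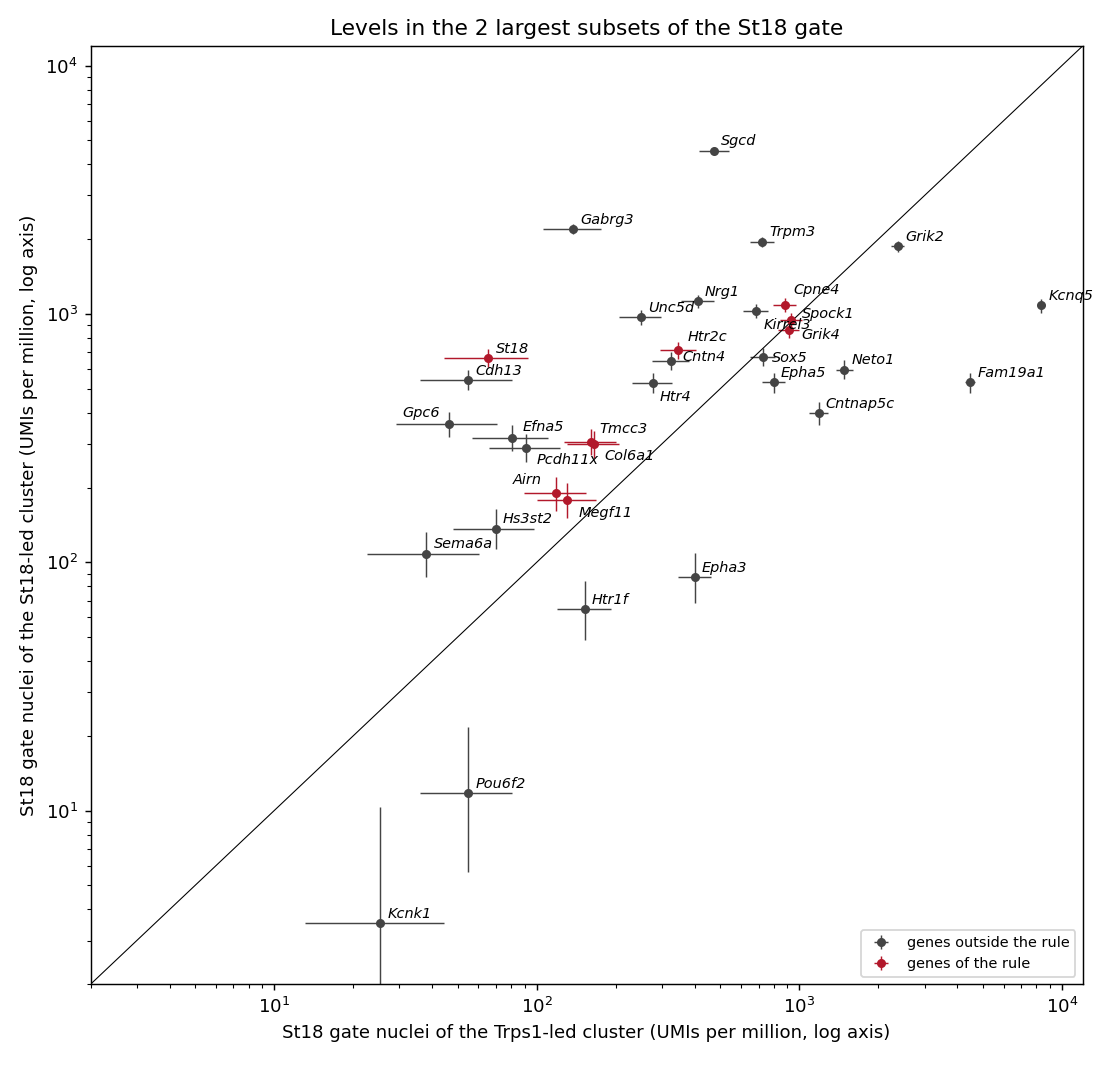
Level in CPM (both axes log) of the selecting, CA3 and further named genes in members of the Trps1-led cluster (horizontal) and of the St18-led cluster (vertical), with 95% counting intervals; red marks genes of the rule and the line marks equal levels. Sgcd and Gabrg3 lie far above the line, Kcnq5 and Fam19a1 far below it, and Sox5, Grik4 and Spock1 near it.

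With the mixture removed on both sides, members of the St18-led cluster were compared with Trps1 gate nuclei of the Trps1-led cluster. There, 204 of 4677 genes (4.36%) were higher and 86 (1.84%) lower, again as a description of clusters. Gabrg3 was at a log2 ratio of 4.18, Vgll3 at 4.71, Pcdh11x at 3.41, Sema6a at 3.26 and Sgcd at 3.15. Epha3 was at -3.16 and P2rx7 at -3.35. Oprm1, Npas3, Sox6, Grik1, Kcnmb2, Ptprm, Pde7b and Adarb2, which were lower against the Trps1 gate, were at or above 0 there, between 0.00 and 1.02. Vgll3 and Sgcd are also leading genes of the St18-led cluster. Vgll3 had passed the filter against the Trps1 gate through the members, and P2rx7 through the Trps1 gate. Their ratios between the clusters support nothing either.

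The same rule was applied to the IL-33 enriched library, as the only other library of the series. It gave 25 nuclei, 2.32% of 1079 (1.505 to 3.40), of which 20 held exactly 3 of the 6 genes, and 170 nuclei in the Trps1 gate. These 25 nuclei held 125432 UMIs, and most single genes have wide intervals. St18 was at 167 CPM (104 to 256) in these 25 nuclei, 107 in the enriched Trps1 gate and 99.7 in other enriched nuclei, and Htr2c at 271 (188 to 379) against 73.6 in other enriched nuclei. Sgcd was at 2113 CPM (1866 to 2383) against 523, a log2 ratio of 2.01 (1.78 to 2.25) beside 1.66 in the control. Bace2 at 3.01 (1.67 to 4.42), Plagl1 at 3.48 (1.58 to 5.66) and Cpne2 at 2.65 (1.10 to 4.23) were others of the 15 highest genes whose interval lay above 0, and Hgf had 4 UMIs in the 25 nuclei and 0 in the enriched Trps1 gate. Of the 69 genes higher in the control, 56 (81.2%) were higher in the enriched library, beside 49.6% of all 6961 genes, and of the 70 lower ones 53 (75.7%) were lower, beside 50.4%. Against the matched Trps1 gate of that library, of 25 nuclei, 58 of 68 higher genes with a value (85.3%) were higher, beside 57.1% of all genes. Of 68 lower genes with a value 43 (63.2%) were lower there, beside 42.9%. Genes of the rule are not among these. The same rule chose the nuclei in both libraries, and genes that go with its genes would follow, so these shares are a description and no replication. The difference between the libraries was not tested.

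**Figure D5:**
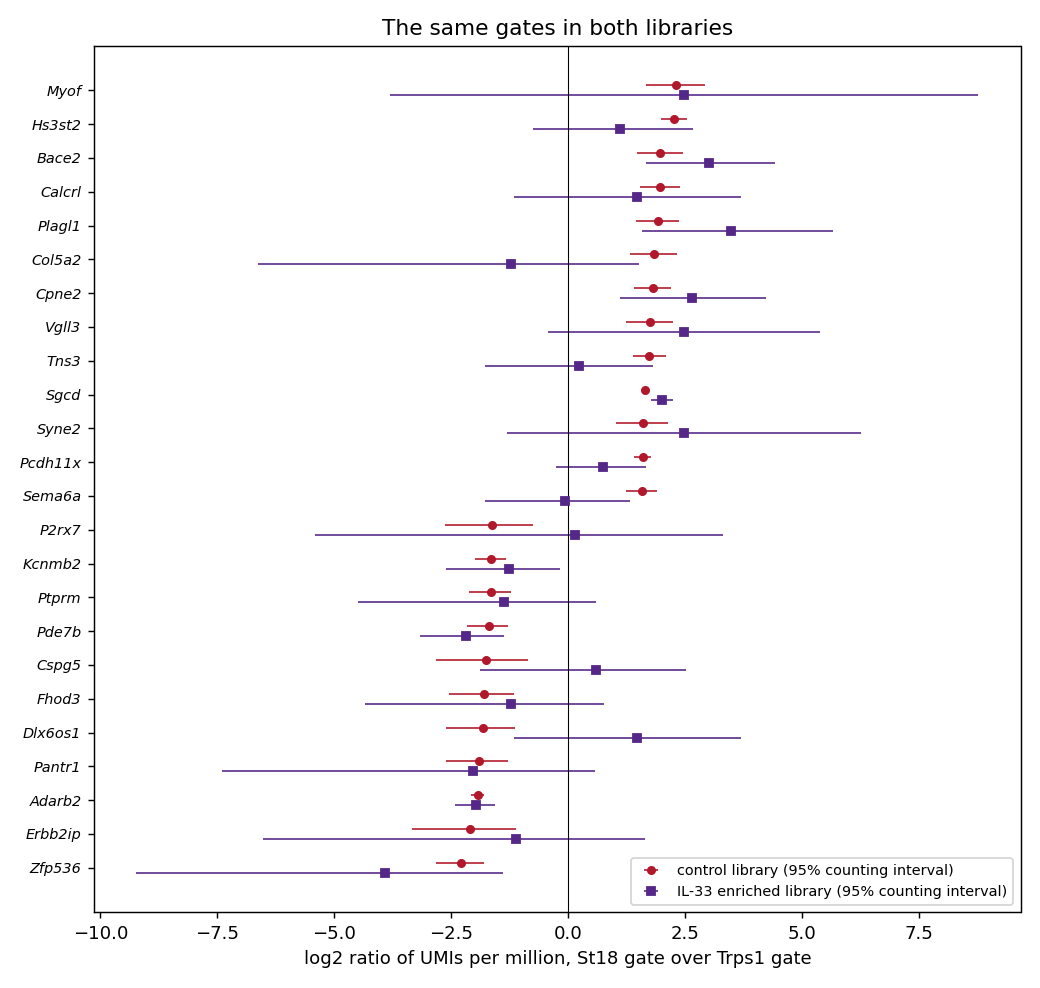
Log2 ratio of CPM, St18 gate over Trps1 gate, in the control (circles) and the IL-33 enriched library (squares) for 24 of the 15 highest and 15 lowest genes, with 95% counting intervals; genes with 0 UMIs in 1 of the enriched gates are left out. Sgcd and Adarb2 have narrow intervals in both libraries and lie on the same side, at 2.01 and -1.97 in the enriched library.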

How the data were processed

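The authors deposited, for each library, natural log values of UMIs scaled to a fixed total per nucleus plus 1, per the values themselves. Per the submitters' processing notes, which give no roles, the tools were STAR, Cell Ranger 2.1 and Seurat 2.3.4, on mm10 (GRCm38), and how nuclei were filtered is not stated in those sources. Inverting the log gave whole UMIs for 100% of nonzero values (tolerance 0.01), and these were used throughout. The authors' table of scaled values of both libraries together was not used here.

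The 2 libraries hold 19089 genes. Doublets were predicted in each library with Scrublet in scanpy 1.11.5 (328 control and 5 enriched nuclei) and left out. The caller marked 0.463% of the enriched nuclei. Control nuclei were clustered (Leiden, resolution 0.8, 2000 variable genes, 30 principal components, 15 neighbours) without the 17 genes of the rule, sex-linked and mitochondrial genes. Clusters are called by their leading genes. UMIs were summed over each set and scaled to 1000000 (CPM), with exact Poisson intervals. Ratios have exact conditional binomial intervals and shares Clopper-Pearson intervals, all at 95%, computed with scipy 1.17.1 and tested on simulated data. They cover counting error, not the spread between mice. A gene entered a comparison at 20 expected UMIs in the smaller set, and 2-fold was the threshold. Shares at equal depth come from each nucleus thinned to 1700 UMIs, which left out no nucleus. Gene positions are from GENCODE M21 (GRCm38), matched for 18351 symbols.

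Genes are named by a rule. Above the filter, with the same direction in nuclei with Xist alone and with Y-linked UMIs alone, and leaving out genes of the rule or with sex-linked, ribosomal or mitochondrial origin and unnamed models, the 15 highest and 15 lowest ratios to the Trps1 gate and the 5 highest to other nuclei were taken. From each functional list came the 2 highest and 2 lowest past 2-fold, with all serotonin and kainate receptor genes, Airn neighbours and defining markers. Other genes are said to be chosen after their values were seen. The members and lists were chosen with earlier results of these data known. Alternatives covered the doublets, rule thresholds, comparison set, scaling, depth, filter, sex part and clustering.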

Additional observations from a re-analysis of the deposited data

Results flagged for a closer look

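Kcnip1, which encodes a potassium channel interacting protein, lay on opposite sides in the 2 libraries. In the control it was at 20.5 CPM in the St18 gate and 56.0 in the Trps1 gate, a log2 ratio of -1.45 (-1.99 to -0.96), and it was lower in both sex parts. In the IL-33 enriched library it was at 63.8 CPM in the St18 gate, from 8 UMIs, and 12.9 in the Trps1 gate, from 9 UMIs, a log2 ratio of 2.31 (0.74 to 3.86). The difference between the libraries was not tested. Within the control gate Kcnip1 was at 7.06 CPM in members of the St18-led cluster, 12.7 in those of the Trps1-led cluster and 59.6 in the others.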

How the results depend on the processing

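For 60 named genes, 891 values were taken under other settings. Of these, 624 stayed close to the reported value, 249 moved by more than counting error and 18 were counted as crossing 0. Sign changes of genes near 0 were not among the 18. Grik3 went from -0.12 to 0.66 and Neto1 from 0.08 to -0.22 against the matched gate, both counted as moved. Grik5 went from 0.07 to -0.04 against nuclei with 4 or more Trps1 genes, counted as close. The values of the 18 follow. Against the matched gate Npas3 was at 0.0155 and Maf at 0.35. Between the St18-led members and the Trps1-led nuclei of the Trps1 gate, Oprm1 was at 0.88, Npas3 at 0.43, Sox6 at 0.21, Grik1 at 0.0309, Kcnmb2 at 1.02, Ptprm at 0.000200, Pde7b at 0.30 and Adarb2 at 0.35. In the enriched library Col5a2 was at -1.22, Sema6a at -0.0555, Oprm1 and P2rx7 at 0.16, Htr1f at 0.0591, Kcnip1 at 2.31, Cspg5 at 0.61 and Dlx6os1 at 1.48. The count of genes higher than in the Trps1 gate, 69, was 113 against the matched gate, 137 against nuclei with 4 or more Trps1 genes and 204 between those clusters. The count of lower genes, 70, was 117 for members with 4 or more of the 6 genes and 32 for members with under 3 Trps1 genes. The cause of these shifts was not tested. With fewer genes or nuclei tested, the higher and lower counts were 25 and 36 at a filter of 50 UMIs, 29 and 43 in the Xist part, 27 higher in the Y-linked part, and 19 and 26 in the enriched library. With no filter beyond 1 UMI they were 1490 and 4089. Against other control nuclei they were 70 and 151 at 50 UMIs. Membership was 832 with 2 or more of the 6 genes, 170 with 4 or more and 123 after thinning. The share of members in the cluster that held most of them was 51.0%, and 50.1%, 46.1% and 52.5% at resolution 0.4, at 1.2 and with the rule genes kept. The cluster, enriched-library and under-3-Trps1 alternatives were chosen after seeing the data. No paired analysis was possible because each group has 1 library and the labels carry no replicate numbers.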
